A study of Mus musculus with 10 samples.

Results

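The guanylate-binding proteins (GBPs) and immunity-related GTPases (IRGs) were examined in retinal cells of mice with and without deletion of *Arid1a*, which encodes a component of the SWI/SNF complexes that remodel chromatin. The 10 genes were taken by symbol: *Gbp2*, *Gbp3*, *Gbp4*, *Gbp5*, *Gbp6*, *Gbp7*, *Irgm1*, *Irgm2*, *Igtp* and *Iigp1*. All 10 were found among the 53974 genes of the RNA-seq table, and all 10 were among the 17555 genes that passed a filter on low values (at least 3 of 6 libraries with 1 TPM or more). Of the 16600 regions of the ATAC-seq comparison, 2 lay within 1000 bp of an end of these genes.

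All libraries came from C57BL/6 mice aged 8 to 10 weeks by label that carried floxed *Arid1a* alleles, and all had received optic nerve crush (ONC). The WT group (genotype label Arid1a fl/fl) was injected in the eye with AAV2-GFP, and the cKO group (Arid1a del/del) with AAV2-Cre, 2 weeks before ONC. By the paper's methods, the AAV2-GFP stock had the higher titer. Virus and titer thus changed along with the genotype label, and their part in any difference was not tested. The paper proposes that its viral infection and immunity terms may be tied to titers and procedures. Retinas were taken 3 days after ONC, and DAPI-negative cells that bound a Thy1.2 antibody were sorted and labelled as retinal ganglion cells (RGCs). RNA-seq covered 3 WT and 3 cKO libraries, and ATAC-seq, which maps open chromatin, covered 2 of each. The virus used a CMV promoter, which is not restricted to RGCs. In mice Thy1 is also a surface molecule of T cells. The labels call the libraries biological replicates but do not say how many animals each holds, so the p-values measure the spread between these libraries. By the paper's supplement, each sorted sample pooled several retinas.

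GBPs are large GTPases and IRGs smaller ones, and both families are among the genes most strongly induced by interferon-gamma. Binding of interferon-gamma to its receptor activates the kinases JAK1 and JAK2. Target promoters hold GAS elements and interferon-stimulated response elements (ISREs), and IRF1 and related factors bind the ISREs. The proteins assemble on membranes around intracellular pathogens. IRGM1, IRGM2 and IGTP (also called IRGM3) are the regulatory IRGs, which hold effector IRGs such as IIGP1 (IRGA6) inactive on the cell's own membranes.

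The 200 bases just upstream of the RefSeq transcription start are shown for the 7 genes with a start in the RefSeq promoter table used (build GRCm38.p6), because factors activated by interferon-gamma are known to act through such promoters. Bases run 5′ to 3′ on the strand of the gene. Capitals mark matches on either strand to the ISRE letters (a pair of GAAA repeats with any 2 bases between them) or the GAS letters (TTC and GAA with any 3 bases between them), and overlapping matches run together.
Gbp2 (chr3:142620463-142620662, plus strand): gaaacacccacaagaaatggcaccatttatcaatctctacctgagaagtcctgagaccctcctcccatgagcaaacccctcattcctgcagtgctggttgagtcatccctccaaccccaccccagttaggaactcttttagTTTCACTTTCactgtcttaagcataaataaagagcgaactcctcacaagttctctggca
Gbp3 (chr3:142559844-142560043, plus strand): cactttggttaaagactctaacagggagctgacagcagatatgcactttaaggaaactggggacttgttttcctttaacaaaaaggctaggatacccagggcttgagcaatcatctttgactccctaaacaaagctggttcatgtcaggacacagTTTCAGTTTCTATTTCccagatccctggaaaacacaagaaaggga
Gbp5 (chr3:142496734-142496933, plus strand): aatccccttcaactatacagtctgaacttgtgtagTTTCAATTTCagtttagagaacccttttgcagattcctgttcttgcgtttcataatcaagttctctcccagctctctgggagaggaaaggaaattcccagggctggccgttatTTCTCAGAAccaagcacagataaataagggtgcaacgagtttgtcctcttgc
Gbp7 (chr3:142530136-142530335, plus strand): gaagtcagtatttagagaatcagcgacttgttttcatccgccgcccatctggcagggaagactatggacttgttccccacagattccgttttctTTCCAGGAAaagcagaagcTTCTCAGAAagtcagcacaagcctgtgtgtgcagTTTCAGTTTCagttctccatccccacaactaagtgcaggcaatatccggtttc
Irgm1 (chr11:48871421-48871620, minus strand): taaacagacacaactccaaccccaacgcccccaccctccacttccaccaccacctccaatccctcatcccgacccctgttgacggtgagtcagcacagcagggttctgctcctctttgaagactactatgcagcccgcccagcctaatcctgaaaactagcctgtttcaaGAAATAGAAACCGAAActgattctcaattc
Irgm2 (chr11:58214777-58214976, plus strand): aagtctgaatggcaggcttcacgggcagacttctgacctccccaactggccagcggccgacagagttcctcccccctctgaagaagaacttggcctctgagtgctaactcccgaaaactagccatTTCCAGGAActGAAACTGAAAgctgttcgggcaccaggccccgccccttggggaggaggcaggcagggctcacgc
Igtp (chr11:58199356-58199555, plus strand): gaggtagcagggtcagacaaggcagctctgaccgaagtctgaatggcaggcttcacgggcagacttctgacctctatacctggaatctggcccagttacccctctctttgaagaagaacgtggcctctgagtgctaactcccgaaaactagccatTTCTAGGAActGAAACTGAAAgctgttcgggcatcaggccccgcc

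In windows from 250 bases before to 50 after a start, the ISRE letters were found in 7 of the 7 member genes. They were found in 3.99% of all 27025 genes in the table, and in 3.44% of its 32851 windows. The GAS letters were found in 4 of the 7 (*Gbp5*, *Gbp7*, *Irgm2* and *Igtp*), against 9.55% of genes and 8.30% of windows. Counted back from the base before the start as -1, the ISRE match lay at -59 to -50 in *Gbp2*, -53 to -44 in *Gbp7*, -64 to -55 in *Irgm2*, -34 to -25 in *Igtp* and, farthest out, -165 to -156 in *Gbp5*. *Gbp3* held 2 overlapping matches from -45 to -30, and *Irgm1* held 2 from -30 to -15. A second listed start of *Gbp3*, downstream of the one shown above, had no match in the 200 bases before it. On the strand of the gene, the ISRE letters read forward in the 3 IRG promoters and in reverse in the 4 GBP promoters.

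The *Irgm2* and *Igtp* promoters resembled each other. When the 2 were aligned on the GAS match, 118 of 170 bases were identical. Likeness was closest around the motifs, with 66 of 68 bases identical in a block there. The longest identical run was 40 bases. In both, the GAS letters were followed after 2 bases by the ISRE letters. This joined arrangement, picked out after the sequences were seen, was present in 5 of the 32851 windows (0.0152%), those of *Irgm2*, *Igtp*, *Tgtp1*, *Tgtp2* and *Gm12185*. Matches to letters describe the sequence and are not evidence of binding.

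RNA levels are given as TPM, a length-corrected share of each library's transcripts, so that levels of different genes can be compared. The sum of the 10 genes was 1152, 604 and 757 TPM in the WT libraries (replicates 1, 2 and 3) and 255, 122 and 355 TPM in the cKO libraries. The highest cKO library thus stayed below the lowest WT library, and the mean was 838 ± 283 against 244 ± 117 TPM (SD, n = 3 each), a ratio of 3.44. The libraries labelled cKO did not hold less *Arid1a* RNA. *Arid1a* read 18.8, 11.7 and 14.1 TPM in WT and 18.8, 27.9 and 25.0 TPM in cKO (log2 fold change 0.66, SE 0.28, adjusted p = 0.274 from limma), so every direction here is that of the label. The authors reported less ARID1A protein by staining of RGCs on retinal sections after AAV2-Cre. A TPM for the whole gene is a different measure and does not show whether single exons were lost.

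No member passed an adjusted p of 0.05 in limma's test of log2(TPM + 1), and over all genes tested 0 were called lower (0%) and 1 higher (0.0057%). The paper's own test, DESeq2, called many genes at that threshold, more of them lower than higher in cKO. That count model cannot be run on TPM, so the near absence of calls is that of the limma fit. All 10 members were lower in the libraries labelled cKO at an unadjusted p under 0.05, against 6.45% of all genes tested. In all 10, every cKO library lay below every WT library, against 7.18% of all genes, while 18.7% of all genes had every cKO library above every WT library. The median log2 fold change of the members was -1.74, from -2.65 for *Iigp1* to -1.13 for *Gbp5*, beside a median of 0.16 over all genes tested. A log2 fold change below that of *Gbp5* was found in 5.45% of all genes. With 3 against 3 libraries an exact two-sided permutation test cannot give a p under 0.1, and it gave 0.1 for each of the 10.

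**Figure D1:**
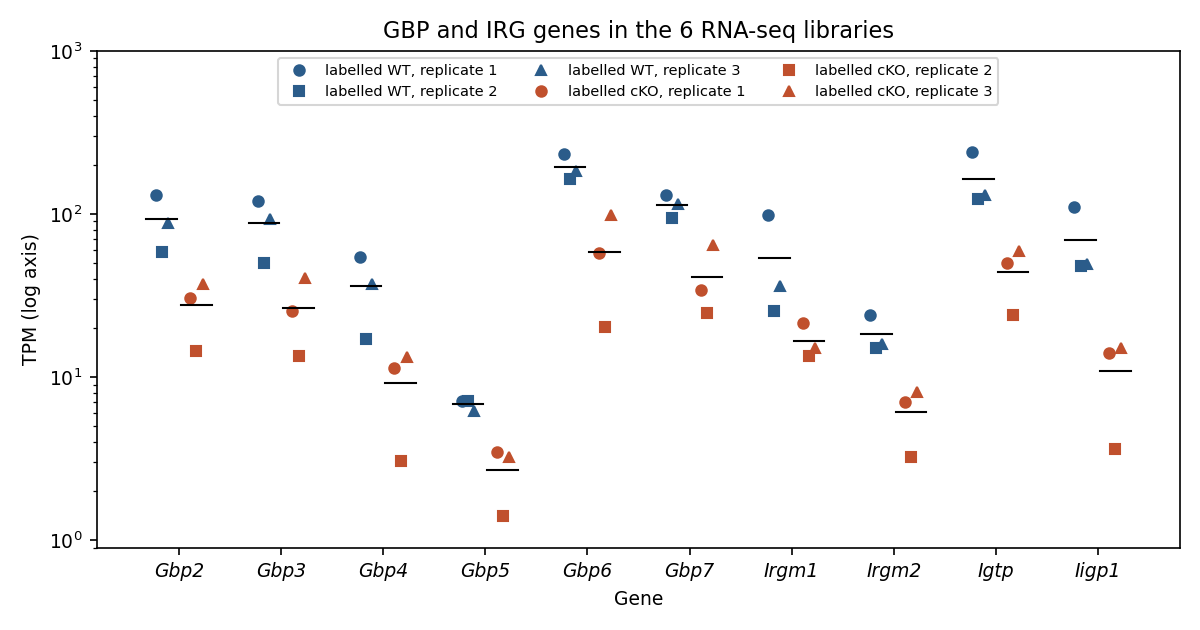
TPM (log axis) of the 10 GBP and IRG genes in the 3 libraries labelled WT and the 3 labelled cKO; each point is 1 library, its shape gives the replicate number, and black lines are group means. For each gene every cKO point lies below every WT point, from *Irgm1* with the smallest gap (1.19-fold between the lowest WT and the highest cKO library) to *Iigp1* with the largest (3.17-fold).

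Among the GBPs, *Gbp6* had the highest mean of all 10 members in both groups, with 234, 165 and 185 TPM in WT and 57.5, 20.2 and 98.7 TPM in cKO (log2 fold change -1.96, SE 0.53, adjusted p = 0.15). *Gbp7*, which has been linked to NADPH oxidase assembly at pathogen vacuoles, read 131, 95.0 and 115 TPM in WT and 34.0, 24.6 and 64.6 TPM in cKO (-1.55, SE 0.36, adjusted p = 0.127). In both genes cKO replicate 3 was the highest of its group and cKO replicate 2 the lowest. *Gbp6* sits in a cluster on chromosome 5 with the closely related *Gbp10*, where transcript quantification may divide reads between copies, so its level is uncertain. *Gbp4* lies in that cluster too, and the chromosome 3 genes also lie beside family genes. The sharing of reads was not measured for any of them.

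*Gbp2*, a GBP that coats pathogen-containing vacuoles, read 131, 58.7 and 88.0 TPM in WT and 30.6, 14.6 and 37.4 TPM in cKO (log2 fold change -1.74, SE 0.43, adjusted p = 0.135). *Gbp3* was close to it in every library, with 121, 50.01 and 92.9 TPM in WT and 25.3, 13.6 and 40.3 TPM in cKO (SE 0.47, adjusted p = 0.149). *Gbp4* read 54.5, 17.2 and 37.5 TPM in WT and 11.3, 3.05 and 13.2 TPM in cKO (-1.92, SE 0.60, adjusted p = 0.175). These 3 genes shared an order of libraries, from WT replicate 1 at the top to cKO replicate 2 at the bottom, without overlap of the groups.

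*Gbp5*, known for its part in inflammasome assembly, was the least abundant member. It read 7.18, 7.16 and 6.24 TPM in WT and 3.50, 1.41 and 3.24 TPM in cKO. Its WT libraries differed by 1.15-fold at most, the least spread of any member in WT. Its log2 fold change was -1.13 (SE 0.33, adjusted p = 0.162), which on this scale understates the change of a gene with so low a TPM.

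Among the regulatory IRGs, *Igtp* was the most abundant, with 240, 123 and 131 TPM in WT and 50.1, 23.9 and 58.9 TPM in cKO (log2 fold change -1.90, SE 0.41, adjusted p = 0.124). *Irgm2* read 24.1, 15.1 and 16.01 TPM in WT and 7.03, 3.25 and 8.12 TPM in cKO (-1.49, SE 0.38, adjusted p = 0.138). In both, WT replicate 1 stood above the other WT libraries, which were close to each other.

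*Irgm1*, a regulatory IRG also tied to autophagy, read 99.1, 25.4 and 36.3 TPM in WT and 21.3, 13.5 and 15.1 TPM in cKO (log2 fold change -1.42, SE 0.50, adjusted p = 0.207). WT replicate 1 was 3.90-fold above WT replicate 2, the widest WT spread of any member, and the lowest WT library was only 1.19-fold above the highest cKO library. Without WT replicate 1 the log2 fold change of *Irgm1* was -0.86. In limma *Irgm1* missed an unadjusted p of 0.05 without cKO replicate 2 or cKO replicate 3, and *Gbp4* missed it without WT replicate 1.

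*Iigp1*, the effector IRG of the group, showed the greatest difference. It read 110, 47.8 and 49.7 TPM in WT and 14.0, 3.64 and 15.1 TPM in cKO, a log2 fold change of -2.65 (SE 0.56, adjusted p = 0.124), and even the lowest WT library was 3.17-fold above the highest cKO library. As a share of the summed TPM of the 10 genes, *Iigp1* made up 9.57%, 7.92% and 6.56% in WT and 5.51%, 2.99% and 4.25% in cKO. Its share was the only one of the 10 whose groups did not overlap (exact two-sided permutation p = 0.1, the smallest possible). The GBPs together made up 64.4% ± 5.20 of the sum in WT and 66.6% ± 5.16 in cKO (SD, n = 3 each; exact permutation p = 0.7).

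The order of the members by mean TPM in WT was *Gbp6*, *Igtp*, *Gbp7*, *Gbp2*, *Gbp3*, *Iigp1*, *Irgm1*, *Gbp4*, *Irgm2* and *Gbp5*. In cKO it was the same but for *Irgm1*, which came before *Iigp1*. The ranges of neighbours in these orders overlapped in every case but *Irgm2* and *Gbp5* in WT, so the order of most neighbours is not resolved by 3 libraries. The libraries themselves kept a common order. WT replicate 1 was the highest of the 6 for all 10 genes, cKO replicate 2 the lowest for all 10, and WT replicate 2 was the lowest WT library for 9, with *Gbp5* as the exception. Averaged over members and centred, log2(TPM + 1) was 1.40, 0.43 and 0.79 in WT and -0.61, -1.67 and -0.34 in cKO.

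The other 16 GBP and IRG genes of the table were all tested and all had a negative log2 fold change, with a median of -1.77. At an unadjusted p under 0.05, 12 of the 16 were lower, against 6.45% of all genes tested, and none passed an adjusted p of 0.05. In 10 of the 16, every cKO library lay below every WT library, against 7.18% of all genes. *Ifi47* (IRGD) read 238, 106 and 186 TPM in WT and 51.9, 17.1 and 39.7 TPM in cKO (log2 fold change -2.31, SE 0.47, adjusted p = 0.124). *Tgtp2*, an effector IRG with a near-identical neighbour in *Tgtp1*, read 242, 81.6 and 80.3 TPM in WT and 44.9, 6.92 and 24.1 TPM in cKO (-2.49, SE 0.71, adjusted p = 0.153). *Gbp2b* (GBP1) read 17.6, 23.2 and 19.7 TPM in WT and 5.74, 2.85 and 3.12 TPM in cKO, with a log2 fold change of -2.15 (SE 0.31). Unlike the 10 members, *Gbp2b* was not highest in WT replicate 1.

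At the other end stood *Irgq*, a divergent relative that is not known as an interferon target. It read 5.85, 13.6 and 2.01 TPM in WT and 7.38, 8.83 and 2.11 TPM in cKO, with overlapping groups and a log2 fold change of -0.08 (SE 0.68, adjusted p = 0.965). *Gbp11* (-0.43), *Gm5431* (-0.39) and *F830016B08Rik* (-1.07) also missed an unadjusted p of 0.05.

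**Figure D2:**
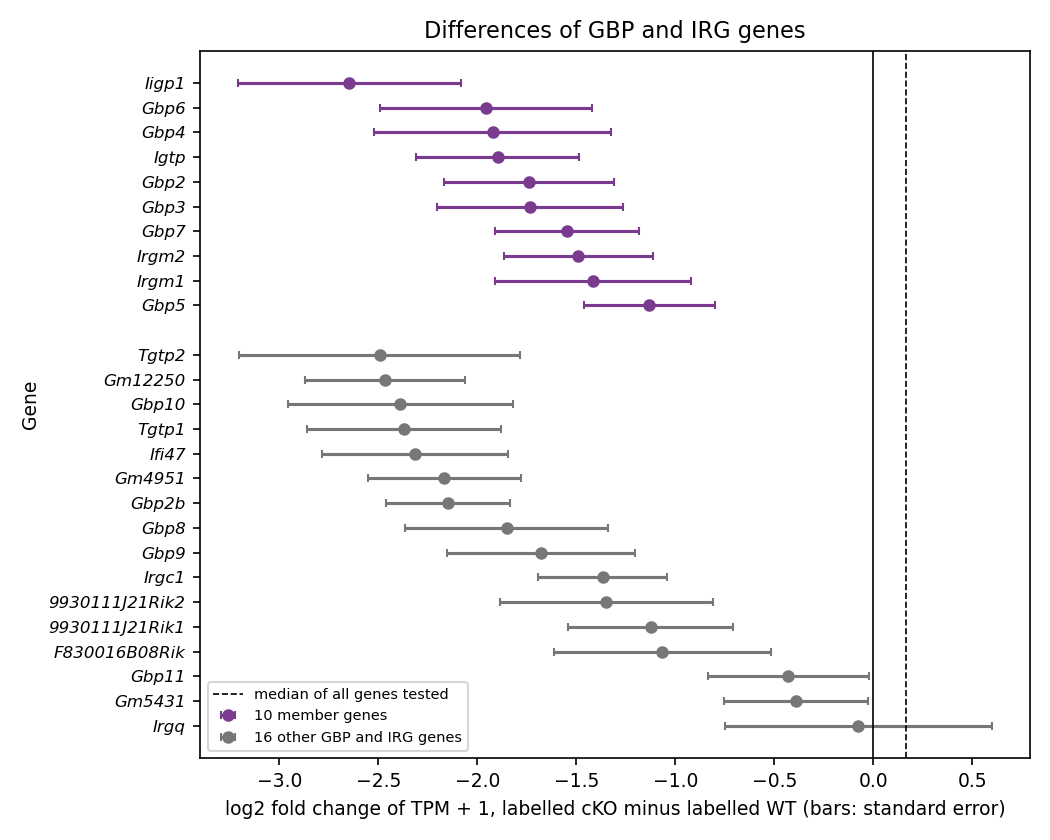
Log2 fold change of TPM + 1 (labelled cKO minus labelled WT) with its standard error for the 10 members and the 16 other GBP and IRG genes; the dashed line is the median of all genes tested, at 0.16. The members lie between -2.65 (*Iigp1*) and -1.13 (*Gbp5*), and *Irgq*, at -0.08, is the nearest to the dashed line.

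Upstream of these GTPases, the ligand *Ifng* read 159, 15.2 and 117 TPM in WT and 29.2, 6.88 and 20.5 TPM in cKO. Its groups overlapped, because WT replicate 2 lay below cKO replicates 1 and 3 (log2 fold change -1.97, SE 0.91, adjusted p = 0.303). The receptor gene *Ifngr1* read 250, 272 and 335 TPM in WT and 158, 129 and 255 TPM in cKO (-0.71, SE 0.29, adjusted p = 0.264), and *Ifngr2*, the second receptor chain, had a log2 fold change of -0.21 (SE 0.32).

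Of the 10 signalling genes, 5 were lower at an unadjusted p under 0.05, against 6.45% of all genes tested. At that threshold 0 were higher, none passed the adjusted p, and the median log2 fold change was -0.88. *Irf1*, which binds ISREs, read 189, 113 and 184 TPM in WT and 70.8, 40.6 and 98.0 TPM in cKO (log2 fold change -1.26, SE 0.37, adjusted p = 0.164), and its groups did not overlap. *Irf8* (-1.73), *Irf9* (-1.13) and *Batf2* (-1.89) were also among the 5, while the kinases *Jak1* (-0.21) and *Jak2* (-0.26) missed an unadjusted p of 0.05. Of the 7 inhibitors of the pathway, 4 were lower at an unadjusted p: *Socs1* (-1.79), *Socs3* (-0.98), *Ptpn6* (-1.42) and *Usp18* (-1.46). *Ptpn2* (0.38) and *Pias1* (0.43) had positive values that missed that threshold.

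Of 23 other targets of interferon-gamma listed, 20 were tested, with a median log2 fold change of -1.51. At an unadjusted p under 0.05, 15 of these targets were lower, against 6.45% of all genes tested. The most abundant targets were *Cd74* (-1.81) and *H2-Ab1* (-2.20), of MHC class II antigen presentation, and *B2m* (-1.60), the light chain of MHC class I. Of 18 genes of the type I interferon response, 14 were lower at an unadjusted p, with a median of -1.40. *Ifit3* (-1.65), *Bst2* (-2.08) and *Oasl2* (-1.63) had the highest mean TPM of them over the 6 libraries. Genes whose proteins work with the GTPases, in autophagy conjugation and inflammasomes, had a median of -0.01 over the 20 tested. Of these, 5 were lower and 2 higher at an unadjusted p, against 6.45% and 11.9% of all genes tested. The autophagy receptor gene *Sqstm1*, the most abundant of the 20, had a log2 fold change of 0.19 (SE 0.22, adjusted p = 0.686). None of the genes of these 3 lists passed an adjusted p of 0.05.

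By a rule of likeness, the 7 genes outside both families whose centred log2(TPM + 1) over the 6 libraries differed least from the mean profile of the members were *Tap1*, *Tnfrsf18*, *Zc3hav1*, *Slc28a2*, *Il7r*, *Gpr132* and *Pqlc3*. Their root mean square differences ran from 0.155 (*Tap1*) to 0.204 (*Pqlc3*) on the log2 scale. *Tap1*, a peptide transporter of antigen presentation, read 127, 65.1 and 103 TPM in WT and 30.2, 18.4 and 43.7 TPM in cKO. *Il7r*, an interleukin receptor gene known for its expression in lymphocytes, read 61.5, 25.5 and 38.0 TPM in WT and 11.5, 5.59 and 11.3 TPM in cKO.

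Markers of lymphocytes were lower in the libraries labelled cKO, as the members were. Summed TPM of 12 T cell markers ran from 701 to 1984 in WT and from 173 to 426 in cKO. All 12 had a negative log2 fold change, 10 of them at an unadjusted p under 0.05, against 6.45% of all genes tested. *Trac*, a T cell receptor constant region gene, read 952, 334 and 771 TPM in WT and 203, 79.2 and 199 TPM in cKO. Sums of 5 NK cell markers ran from 74.5 to 149 TPM in WT and from 14.9 to 36.6 in cKO, and those of 5 B cell markers from 29.6 to 106 and from 8.86 to 18.3. In each of these lists 4 markers were tested and 3 were lower at an unadjusted p. *Igkc*, an antibody light chain gene, held 5.44%, 0.859% and 2.89% of all TPM in the WT libraries and 0.923%, 0.226% and 0.841% in the cKO libraries, so its groups overlapped. Myeloid markers were mixed. Their summed TPM ran from 1895 to 3009 in WT and from 793 to 1064 in cKO, but most of it was *Lyz2* and *C1qa*, and 4 of the 11 were lower at an unadjusted p, with a median log2 fold change of -0.60. *P2ry12*, a microglial marker, had a value of 0.10. None of the T cell or myeloid markers was at 0 in any library.

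Sums of 5 rod markers ran from 12116 to 16921 TPM in WT and from 24761 to 47293 in cKO. RGC markers were mixed too. Of the 8 tested, 2 were higher at an unadjusted p (*Thy1* and *Tubb3*), against 11.9% of all genes tested. Negative values were found for 3 of the 8, and the median log2 fold change was 0.14. Sums of the 10 RGC markers listed ran from 142 to 199 TPM in WT and from 224 to 250 in cKO and were mostly *Thy1* and *Isl1*. *Thy1*, the antigen of the sort, held 88.5, 51.9 and 62.7 TPM in WT and 106, 94.4 and 129 TPM in cKO. *Pou4f2*, a defining RGC gene, was at 0 in all libraries but cKO replicate 3 (0.143 TPM). The sums overlapped for 5 Mueller glia markers (3343 to 6930 TPM in WT and 2702 to 6848 in cKO) and for 5 endothelial markers (205 to 537 and 168 to 593).

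Set against the T cell sum, the summed TPM of the members was 0.581, 0.862 and 0.479 in WT and 0.597, 0.704 and 0.895 in cKO, so that on this ratio the groups overlapped. They also overlapped on the ratio to the NK cell sum (7.71 to 8.47 in WT and 6.95 to 14.2 in cKO), to the B cell sum (7.93 to 20.4 and 13.7 to 20.9) and to the myeloid sum (0.252 to 0.537 and 0.153 to 0.431). They did not overlap on the ratio to the RGC sum, which rests mostly on *Thy1* and *Isl1*, at 3.04 to 6.71 in WT and 0.539 to 1.59 in cKO. Nor did they on the ratio to the rod sum (0.0448 to 0.0833 and 0.00274 to 0.0103). On the ratio to the sum of the type I interferon-stimulated genes the groups overlapped (0.881 to 1.38 and 0.783 to 1.21). In these bulk libraries fewer cells of a type and less RNA per cell cannot be told apart, and the part of the cell makeup in the difference of the members was not tested.

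**Figure D3:**
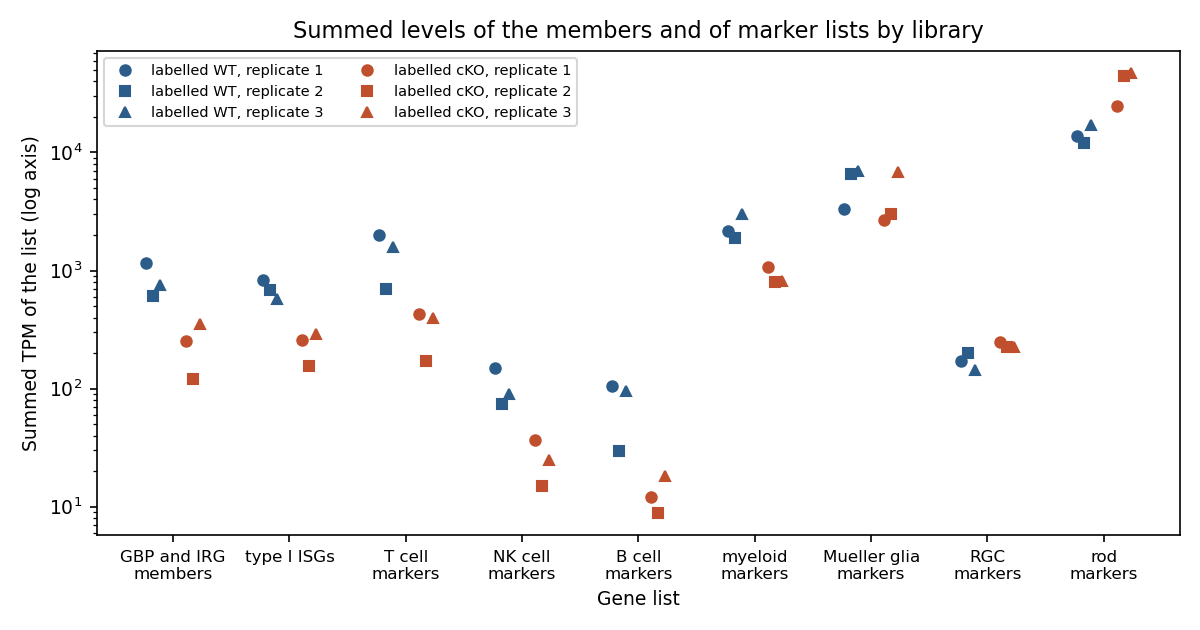
Summed TPM (log axis) of the 10 members, of type I interferon-stimulated genes (ISGs) and of marker lists in each of the 6 RNA-seq libraries, by label and replicate. As for the members, WT libraries lie above cKO libraries in the type I ISG, lymphocyte and myeloid lists, with the T cell sum between 701 and 1984 TPM in WT and between 173 and 426 in cKO, while the RGC and rod sums are higher in cKO.

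The 7 promoters shown above could be set beside all promoters with the ISRE letters. Among tested genes with a window in the table, 451 held the letters, with a median log2 fold change of -0.07 and 22.4% lower at an unadjusted p under 0.05. The other 11236 had a median of 0.13 and 6.33% lower. The 7 members are among the 451, all 7 lower at an unadjusted p. All 5 genes with the joined GAS and ISRE letters were lower at an unadjusted p, against 6.91% of the 11682 tested genes without them. The arrangement was picked from the *Irgm2* and *Igtp* promoters, already known to be lower, and *Tgtp1* and *Tgtp2* are near-identical family genes. This count therefore cannot show a link between the letters and RNA. Most genes with the ISRE letters thus did not pass an unadjusted p of 0.05 in that direction.

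In the ATAC-seq comparison, 2 regions lay at the member genes, at the starts of *Gbp7* and *Irgm1*. The authors' group values are log2 of mean normalized reads, 1 value per group, so no error or test can be given. The *Gbp7* region (chr3:142529966-142530740, GRCm38) had 4.09 in WT and 2.71 in cKO, a difference of -1.38, or 17.0 against 6.54 reads. The *Irgm1* region (chr11:48871036-48872133) had 5.08 and 3.49, a difference of -1.59, or 33.8 against 11.2 reads. Both were lower by at least 1 on the log2 scale, as were 59.8% of all regions and 93.4% of the regions that, like these, had a peak in both WT libraries. The median difference was -1.57 over all regions and -2.62 over the 7278 regions at gene ends with a peak in both WT libraries. Of these 7278, 91.1% had a more negative difference than *Gbp7* and 86.7% than *Irgm1*. Both regions were therefore lower in cKO by less than most regions of their kind. Their WT levels differed, however. The WT value of the *Gbp7* region was above that of only 12.8% of the 7278 regions, and that of the *Irgm1* region above 49.6%. The medians of the 7278 were 5.08 in WT and 2.57 in cKO. Whether the WT level of a region bears on the size of its difference was not tested.

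Members were not often represented in the comparison, at 2 of 10, against 51.5% of the 15518 tested genes with a position in the gene table used. Outside the window of 1000 bp, the nearest regions lay 2545 bp from an end of *Igtp* (difference 0.03) and 3245 bp from an end of *Gbp5* (difference -1.53).

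Called peaks within 1000 bp of an end were found for 5 members in WT replicate 1 (*Gbp2*, *Gbp3*, *Gbp4*, *Gbp7* and *Irgm1*), where 65.1% of tested genes had one. In WT replicate 2, *Gbp7* and *Irgm1* had one, 2 of 10, against 58.2% of tested genes. In cKO replicate 1 *Gbp6* and *Irgm2* had one, against 13.6% of genes, and in cKO replicate 2 *Gbp2* alone did, against 13.9%. The cKO peaks at *Irgm2* and *Gbp2* lay at the far end of the gene and not at its start. The strand of *Gbp4*, *Gbp6* and *Iigp1* was not given in the tables used. *Igtp*, *Gbp5* and *Iigp1* had no peak within 1000 bp of an end in any of the 4 libraries, although *Igtp* RNA stood at 123 TPM or more in every WT library.

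The peaks could be laid over the promoters. At *Irgm1* both ISRE matches lay inside the peaks of both WT libraries. At *Gbp7* the ISRE match and both GAS matches lay inside the WT replicate 1 peak, while the WT replicate 2 peak began 20 bp after the start. At *Gbp2* the ISRE match lay inside the WT replicate 1 peak, which reached from -1141 to 262 bp relative to the start. At *Gbp3* the WT replicate 1 peak began 57 bp after the start shown above and left the ISRE matches outside. That peak covered the 200 bases before the second listed start of *Gbp3*, which hold no match. No match lay in a peak of a cKO library. Such peaks were rare at gene ends in general. A peak covered an end of 2.11% and 1.81% of all tested genes in cKO replicates 1 and 2, against 46.6% and 40.4% in WT replicates 1 and 2. The cKO lists were not short, with 55902 and 68317 peaks, against 76522 and 42265 in WT.

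**Figure D4:**
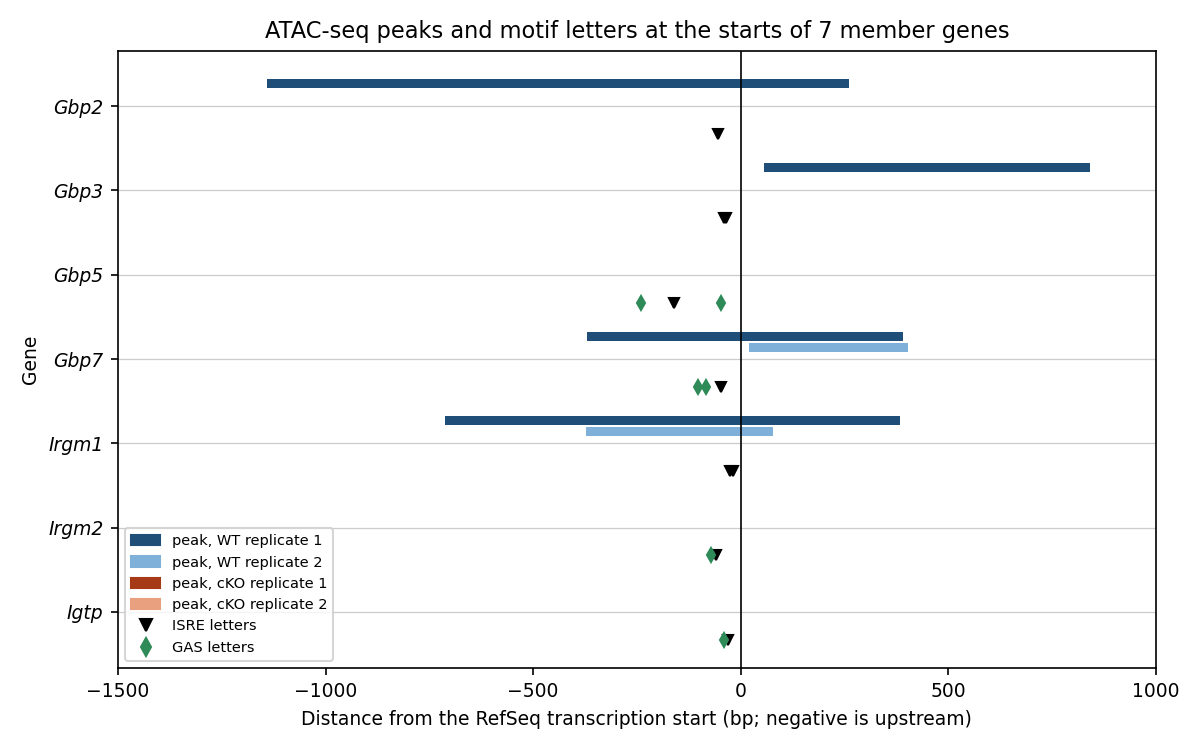
ATAC-seq peaks (bars, by library) and matches to the ISRE letters (triangles) and GAS letters (diamonds) by distance in bp from the RefSeq start of 7 member genes. For *Gbp3* the first listed start is drawn. Peaks of WT replicate 1 are seen at *Gbp2*, *Gbp3*, *Gbp7* and *Irgm1* and of WT replicate 2 at *Gbp7* and *Irgm1*, and none of cKO replicates 1 and 2 falls in the range drawn. Peaks of cKO replicates 1 and 2 covered an end of 2.11% and 1.81% of all tested genes.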

How the data were processed

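RNA-seq values are TPM made by the authors, who trimmed the reads, quantified transcripts with Salmon (version 1.0.0 in the submitters' processing notes) and summed them to genes with tximport. Sequencing depth cannot be read from TPM and no counting error is given. The deposited ATAC-seq values are log2 mean normalized reads per group, made by the authors with DiffBind after alignment with Bowtie2 (2.3.5.1) to GRCm38. Peak lists (MACS2 2.2.5) give positions per library. The authors' own fold changes and p-values for RNA and ATAC-seq were not used.

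Groups came from the labels. For the 17555 genes at 1 TPM or more in 3 or more of the 6 libraries, log2(TPM + 1) was compared with limma 3.58.1 in R 4.3.3 (empirical Bayes with a trend, 3 against 3 libraries), with Benjamini-Hochberg adjustment over all genes and a threshold of 0.05, and the fit was tested on simulated data. Fold changes on this scale understate those of low genes. Positions came from RefSeq on GRCm38.p6. The genes, lists and tests were chosen with earlier results of these data known. All members, the GBP, IRG, receptor, signalling and inhibitor genes, the 3 most abundant genes of each other list and the 8 most alike genes could be named, and the values of some of these are not reported here. Same-numbered WT and cKO libraries correlated at 0.334, 0.101 and 0.425 in their deviations from the group means. The highest value between libraries of different number was 0.193, for WT replicate 1 and cKO replicate 2. No label gives the replicate numbers as pairs, so a block for them was run as an alternative only. The other alternatives were a pseudocount of 0.1, no filter or a mean TPM of at least 5, median-of-ratios scaling, no trend, each library left out, and windows of 3000 bp or none.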

Additional observations from a re-analysis of the deposited data

How the results depend on the processing

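The 10 members kept negative log2 fold changes in all 119 values under the alternatives, and none passed an adjusted p of 0.05 by limma. With each library left out in turn, the median of the members ran from -2.05 (without cKO replicate 3) to -1.34 (without cKO replicate 2). With the replicate number as a block, 10 of 10 members stayed at an unadjusted p under 0.05 and the smallest adjusted p was 0.0633, so the pairing changed no call of a member. *Gbp5* was not fitted at a mean TPM of at least 5. Median-of-ratios scaling moved the median of all genes from 0.16 to 0.01 and that of the members to -1.90, and it turned the split of all unadjusted calls from 1133 lower and 2095 higher to 1674 and 1328.

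Counts in short lists moved more. Of the ligand and receptor genes, 1 was lower at an unadjusted p under 0.05, and 0 were with no filter, at a mean TPM of at least 5 or without the trend, 2 with the replicate block, and 0 to 1 with a library left out. Leaving out a library gave 3 to 6 of the signalling genes, 9 to 15 of the type I interferon-stimulated genes and 2 to 5 of the partner genes. The causes were not tested. With windows of 3000 bp the median difference of the member regions was -1.38, and 3 members had a peak at an end in cKO replicate 2. With no window the count was 1 in WT replicate 2, 1 in cKO replicate 1 and 0 in cKO replicate 2. No paired analysis was possible because ATAC-seq values are given per group alone. With 3 libraries a group and unknown depth, the smallest differences between neighbouring members are not resolved.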
